A study of Mus musculus with 4 samples.

Results

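The experiment compares B220 cells of the spleen with B220 cells of the bone marrow in normal mice. It rests on 1 array for each organ, the arrays titled Spleen WT and Bone marrow WT, out of 4 arrays in the series. B220 is the form of the surface phosphatase CD45 that B-lineage cells carry, and some plasmacytoid dendritic, NK and activated T cells carry it too. Both wild-type (WT) arrays come from naive C57BL/6 mice, and the cells were used freshly isolated, without culture. The other pair of arrays has B220 cells of the same organs from mice labelled as Mef2c knockout (KO). Their RNA, from a Qiagen RNeasy kit, was labelled with Cy3 and read on Agilent 1-colour arrays. The sources used here do not give the number, age or sex of the animals, the way B220 cells were isolated, or the deleted part of Mef2c. With 1 WT array for each organ, nothing checks a WT difference against repeats, and precision is limited by how few arrays there are. The marrow arrays shared slide 1 and scan 1 and the spleen arrays slide 2 and scan 2, so slide, scan and organ cannot be told apart.

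B cells are made in the bone marrow. Pro-B and pre-B cells there depend on interleukin 7, cut and join their immunoglobulin genes with the Rag1 and Rag2 recombinase, pair the new heavy chain with a surrogate light chain, and divide in bursts. Cells that carry a finished receptor leave for the spleen, where they pass a transitional stage and become follicular or marginal zone B cells, which rest, circulate and present antigen on MHC class II.

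Values are given first as signals, the processed brightness of a gene's brightest probe in arbitrary units, on marrow WT and then on spleen WT. Differences are log2 values of spleen minus marrow after each array's 75th percentile was subtracted. That percentile was 966 on marrow WT and 972 on spleen WT, so signals are compared on nearly the same scale by this measure. Spike-in controls, which no scaling used, had a median signal of 1888 on marrow WT and 443 on spleen WT, and the effect of that gap on the counts was not tested. In this scale 21065 genes were measured, which means well above background on at least 1 WT array. Of these, 3220 (15.3%) were at least 2-fold higher and 3324 (15.8%) at least 2-fold lower in spleen. At 4-fold, 1022 genes (4.85%) were higher and 998 (4.74%) lower. A gene above background on 1 array only is given as "at least N-fold", against the detection limit of the other array, and such bounds make up 626 of the higher and 586 of the lower genes. The median gene differed by -0.07. With the median as the scale, the median gene differed by -0.25 and the split became 2649 higher and 4270 lower. Where a gene had several measured probes, these were over 2-fold apart for 36.0% of 5931 genes, so the farthest other probe is given beside a named gene where it is over 2-fold away.

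**Figure D1:**
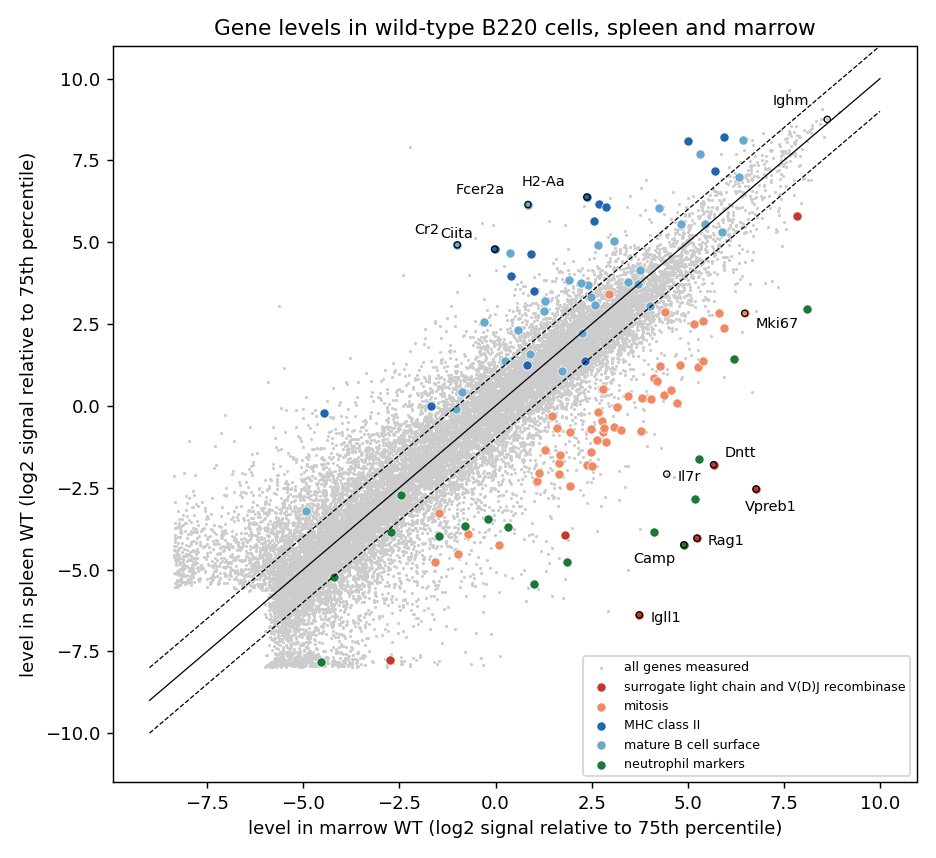
Level of each measured gene on marrow WT (x axis) and spleen WT (y axis), as log2 signal relative to the array's 75th percentile, with members of 5 gene lists in colour. The solid line marks equal levels and the dashed lines a 2-fold difference. Surrogate light chain, recombinase, mitosis and neutrophil genes lie below the lines, and most MHC class II genes above them.

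A single test was possible. It takes both genotypes as repeats of 1 organ effect, in limma with organ and genotype as terms on all 4 arrays, with 1 residual degree of freedom and Benjamini-Hochberg adjustment over 21669 genes. A gene well above background on at least 1 array entered with its measured levels, not with bounds. Where a gene was not well above background on an array, its effect and p-value rest partly on that dim level. The labels do not say that the genotypes are repeats, and nothing says that the arrays stand for separate groups of animals. The p-values of this fit therefore measure only the spread between these arrays, and limma draws most of that spread from all genes together. This sharing gave 7.56 prior degrees of freedom, beside the 1 residual, and a prior SD of 0.55. At an adjusted p under 0.05 in limma, 530 genes rose from marrow to spleen (2.45%) and 1052 fell (4.85%), against 4341 genes with an unadjusted p under that level. "Rose" and "fell" are used below for these calls only. In such mixed RNA, fewer cells of a type and less RNA per cell cannot be told apart.

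The B cell label was checked first. Cd79b, which carries the signal of the B cell receptor, had a signal of 209364 on marrow WT and 318458 on spleen WT, a difference of 0.60. Its partner Cd79a had 3090 and 6006 (0.95). Ms4a1 (CD20) had 77206 and 122766, with a difference of 0.66 by the brightest probe and 1.05 by the other. The immunoglobulin heavy chain entry Ighm was at 382249 and 420599 (0.13). These B-lineage markers were well above background on both arrays and less than 2-fold apart by their brightest probes. A mature B cell protein, the BAFF receptor Tnfrsf13c, also differed little, with signals of 42388 and 45762 (0.10). Mef2c, the gene named as knocked out in the other pair, had signals of 4218 on marrow WT and 8534 on spleen WT (1.01) by its brightest probe. The arrays labelled KO were not lower by this probe, at 5511 in marrow and 11838 in spleen. Its other probe had 21.2 and 364 on the WT arrays (4.09) and 28.5 and 128 on the arrays labelled KO. With the deleted part not given, these probes do not settle the label, and KO stands below for the label only.

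The genes for the surrogate light chain and V(D)J recombination had the largest median difference of the B-lineage lists. All 7 were at least 2-fold lower in spleen WT, with a median difference of -7.47 over the 5 measured on both arrays. Vpreb1, the variable-like part of the surrogate light chain, had a signal of 105888 on marrow WT and 167 on spleen WT, a difference of -9.31 (637-fold lower). Igll1 (lambda 5), its partner, had 12900 on marrow WT and 11.7 on spleen WT, which was not well above background, and was at least 671-fold lower. Rag1 had 36460 and 59 (-9.28), and -9.76 by its other measured probe. All 3 genes were bright in marrow and dim in spleen.

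Dntt, the terminal transferase that adds untemplated bases at the joins, had signals of 49160 and 279.8 (-7.47, or -8.88 by its other probe). Vpreb2, a close copy of Vpreb1, was at 3394 and 63.5 (-5.75), and which copy was measured is uncertain. Rag2 was dim already in marrow, at 144 against 4.45, and at least 7.48-fold lower. Vpreb3, which stays on in later B cells, was the exception in size: 219675 in marrow and still 53749 in spleen (-2.04). In limma all 7 fell, Vpreb1 by 9.09 (SE 0.524, adjusted p 0.000418), Rag1 by 9.14 (adjusted p 0.000418) and Vpreb3 by 2.27 (adjusted p 0.0352). Igll1 and Rag2 were not well above background on either spleen array, so their calls rest on spleen levels under the detection limit. The call for Vpreb3 was lost with cyclic loess scaling. The KO-labelled pair of arrays gave -8.86 for Vpreb1, -8.99 for Rag1 and -8.01 for Dntt. On the mouse build mm9, the probe of Vpreb1 lies on chromosome 16 at 16868559 to 16868618, that of Igll1 on chromosome 16 at 16861104 to 16861163 and that of Rag1 on chromosome 2 at 101478813 to 101478872.

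The promoters of these 3 genes are shown because the genes were bright in marrow and dim in spleen together. Each line holds the 250 bases before the gene's start, from RefSeq on GRCm38.p6, 5′ to 3′ on the gene's strand: chr16:16869256-16869505 for Vpreb1, chr16:16863986-16864235 for Igll1 and chr2:101649533-101649782 for Rag1, each on the minus strand. Capitals mark 3 motifs on either strand: the E-box CAGGTG, bound by E2A, the core CCCNNGGG of the Ebf1 site, and the Y box CCAAT, bound by NF-Y.
Vpreb1: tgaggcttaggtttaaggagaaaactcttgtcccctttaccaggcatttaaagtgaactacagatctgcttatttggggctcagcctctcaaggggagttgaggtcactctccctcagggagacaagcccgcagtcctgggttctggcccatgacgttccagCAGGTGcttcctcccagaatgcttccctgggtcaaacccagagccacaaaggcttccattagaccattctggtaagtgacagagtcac
Igll1: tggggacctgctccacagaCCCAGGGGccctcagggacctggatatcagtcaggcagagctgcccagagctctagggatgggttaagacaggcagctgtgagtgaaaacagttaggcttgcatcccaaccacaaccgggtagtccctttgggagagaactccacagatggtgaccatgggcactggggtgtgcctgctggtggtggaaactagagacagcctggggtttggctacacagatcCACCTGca
Rag1: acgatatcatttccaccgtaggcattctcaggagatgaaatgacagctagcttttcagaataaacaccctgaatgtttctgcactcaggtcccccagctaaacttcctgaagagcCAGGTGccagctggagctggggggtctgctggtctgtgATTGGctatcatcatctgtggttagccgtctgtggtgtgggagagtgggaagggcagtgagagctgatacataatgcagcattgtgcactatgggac
The E-box was found in 4 of the 7 promoters of the list (Vpreb1, Vpreb2, Igll1 and Rag1), 57.1%, where 17.1% of all 27025 promoters in the table hold it. In Vpreb1 it starts 88 bases before the gene's start, in Rag1 135 and in Igll1 8. The Ebf1 core occurs in Igll1 alone of the 7, against 11.7% of all promoters. A match is a run of letters and does not show that a factor binds there.

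Surface proteins of pro-B and pre-B cells were mixed: of 18 measured, 9 were at least 2-fold lower in spleen WT, 2 higher, and the median difference was -1.15. Il7r, the receptor chain for interleukin 7, had signals of 21157 and 229.5 (-6.54, 92.8-fold lower), and -5.32 by its other measured probe. Enpep, the BP-1 peptidase of pre-B cells, was at 768 in marrow and under the detection limit in spleen, at least 40.0-fold lower. Bst1 (BP-3) differed by -4.71, Il2ra (CD25) by -3.41, and Cd93 (AA4.1), which marks immature and transitional B cells, by -3.10 (-1.21 by its other probe). Kit, the stem cell factor receptor, was dim on both arrays, 288 and 90.1 (-1.68). These 6 genes fell in limma, Il7r by 5.93 (SE 0.559, adjusted p 0.00141), and Kit by 2.46 (adjusted p 0.0389), a call that cyclic loess scaling did not keep. Enpep was not well above background on either spleen array. Cd24a (heat-stable antigen), high on immature cells, had 106104 and 41267 (-1.37, adjusted p 0.166 in limma). Higher in spleen were Cd2, an adhesion protein, at 4235 against 11093 (1.38), and Tnfrsf18 (GITR) at 1565 against 5691 (1.85).

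Transcription and signalling genes of early B cells showed a similar picture, with 14 of 22 at least 2-fold lower, 0 higher and a median of -1.79. Erg, an Ets family factor of progenitors and pro-B cells, had signals of 3842 and 73.4 (-5.72). Myb had 59813 and 1784 (-5.08), Sox4 had 5321 and 286 (-4.23), and Lef1, a Wnt pathway factor, had 10248 and 816 (-3.66). Other probes reached -1.72 for Myb and -1.66 for Lef1. Lower too were the bromodomain protein gene Cecr2 (-3.92), the scaffold protein gene Akap12 (-3.05), Smarca4, the motor of the BAF remodelling complex (-2.54), and Tcf3, which encodes E2A (-2.15). In limma 11 of the 22 fell, among them Erg by 6.53 (adjusted p 0.00116) and Myb by 4.59 (adjusted p 0.00276), while Tcf3 did not pass (adjusted p 0.0834). Ebf1 and Foxo1, which start the B-cell program, stood apart from this group: Ebf1 had 7386 and 6713 (-0.15, or 1.28 by its other probe), and Foxo1 20514 and 23711 (0.20).

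**Figure D2:**
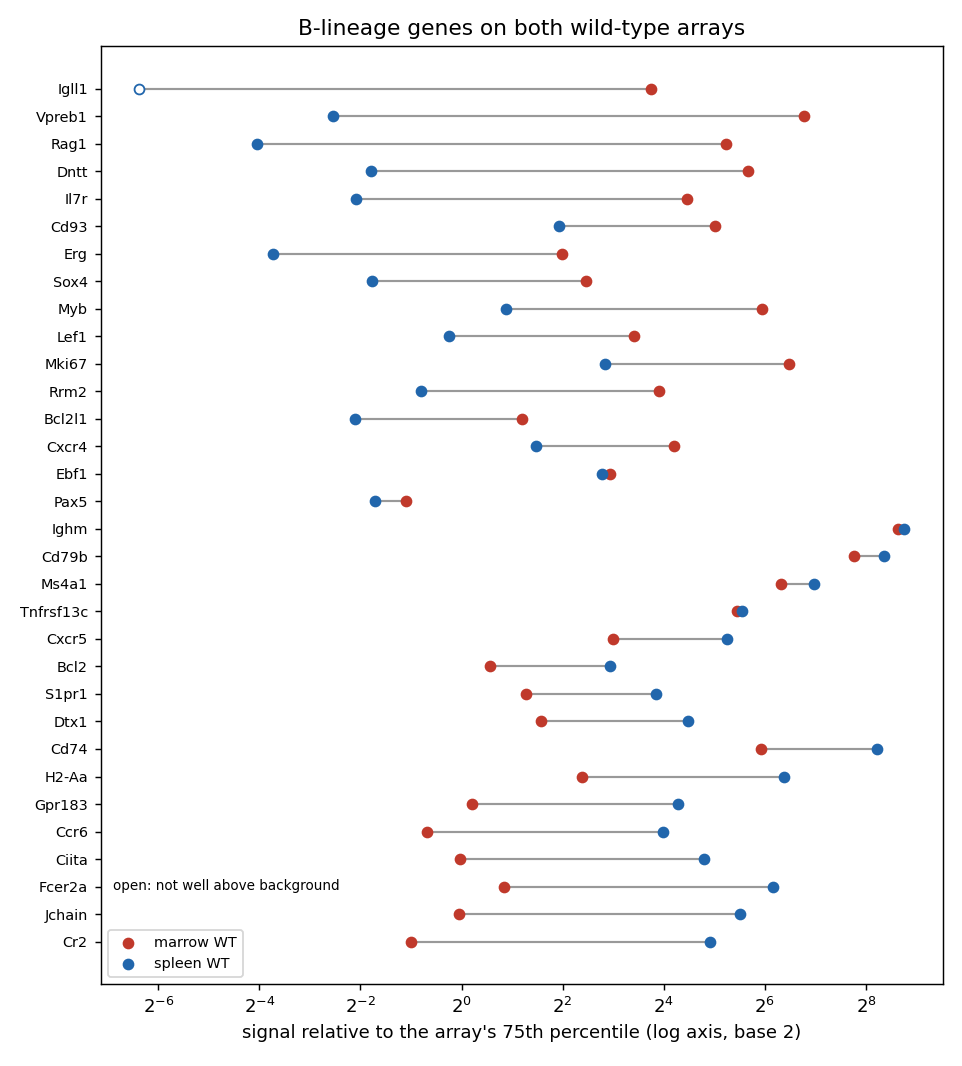
Signal of 32 B-lineage genes relative to the array's 75th percentile (x axis, log scale of base 2) on marrow WT (red) and spleen WT (blue), from early to mature genes. Igll1 on spleen WT was not well above background (open). Early genes are lower and most mature genes higher in spleen, while Ebf1, Ighm and Tnfrsf13c nearly coincide.

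Genes of cell division were lower in spleen WT as a group. Of 49 genes of mitosis and chromosome segregation 48 were lower by 2-fold or more, 0 were higher, and the median was -3.44. Mki67, the Ki-67 antigen of dividing cells, had signals of 86316 on marrow WT and 6915 on spleen WT (-3.65). Cyclin A2 (Ccna2) had 25610 and 1034 (-4.64), and the mitotic kinase gene Cdk1 differed by -3.99. Top2a, the topoisomerase that untangles chromosomes, differed by -3.19 (-1.41 by its other probe) and the kinetochore protein gene Cenpf by -4.53. Only Pttg1 (securin) was not lower, at 7424 and 10296 (0.46). Both Bub1 probes went opposite ways (-4.17 and 1.70). In limma 45 of the 49 fell, Mki67 by 3.79 (SE 0.52, adjusted p 0.00453).

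DNA replication and nucleotide synthesis genes were lower for 42 of 46, with 0 higher and a median of -2.19. Rrm2, the regulated subunit of ribonucleotide reductase, had 14571 and 561 (-4.71), the helicase subunit Mcm5 23032 and 6740 (-1.78), and Uhrf1, which carries DNA methylation through replication, 29662 and 2691 (-3.47). Among them 21 fell in limma, Rrm2 by 4.60 (adjusted p 0.00231). Neutrophil markers, which include genes of dividing granulocyte precursors, were lower as well, with a summed signal of 462429 on marrow WT and 11401 on spleen WT, and their part in the division genes was not tested. Pold2, a subunit of polymerase delta, and Rfc1, a subunit of replication factor C, were less than 2-fold apart, at -0.82 and -0.30.

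Brakes on the cell cycle and genes of resting lymphocytes were not higher in spleen WT: 0 of 23 were higher by 2-fold or more, 8 were lower, and the median was -0.46. The inhibitors Cdkn1a (p21, -2.75) and Cdkn2c (p18, -2.44) fell in limma, with adjusted p 0.0121 and 0.0368. Cyclin D3 (Ccnd3), needed for pre-B cell division, also fell, by 3.30 (adjusted p 0.0218), and these calls for Cdkn2c and Ccnd3 were lost with cyclic loess. Klf2, a factor of resting and circulating lymphocytes, had 100906 in marrow and 45279 in spleen (-1.17, adjusted p 0.911 in limma). Klf2 differed by 0.71 in the KO-labelled pair. Btg2, which slows division, had -1.81 by its brightest probe and 1.23 by another.

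End joining and break response genes repair the cuts of the recombinase. Beside 15.8% of all genes lower and 15.3% higher, 5 of these 21 genes were lower and 0 higher (median -0.54). Steps of the pathway among these were Xrcc6 (Ku70), which holds broken ends, at 14584 and 1337 (-3.46), Lig4, the ligase, at 5883 and 859 (-2.79), and Polm, a polymerase that fills the joins, at 44637 and 7204 (-2.64). H2ax, the histone that marks breaks and is also made in dividing cells, differed by -3.88, and Hmgb2, which helps the recombinase bend DNA, by -3.25. Xrcc6 (adjusted p 0.00782), Lig4 (0.0227), H2ax (0.00462) and Hmgb2 (0.0377) fell in limma. The break-sensing kinase genes went slightly the other way, Atm at 0.72 and Prkdc at 0.66. Other end joining genes neither rose nor fell in limma. Their effects over both genotypes were 0.53 for Xrcc5 (Ku80), -0.06 for Xrcc4, -0.13 for Nhej1 and -0.27 for Dclre1c (Artemis).

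**Figure D3:**
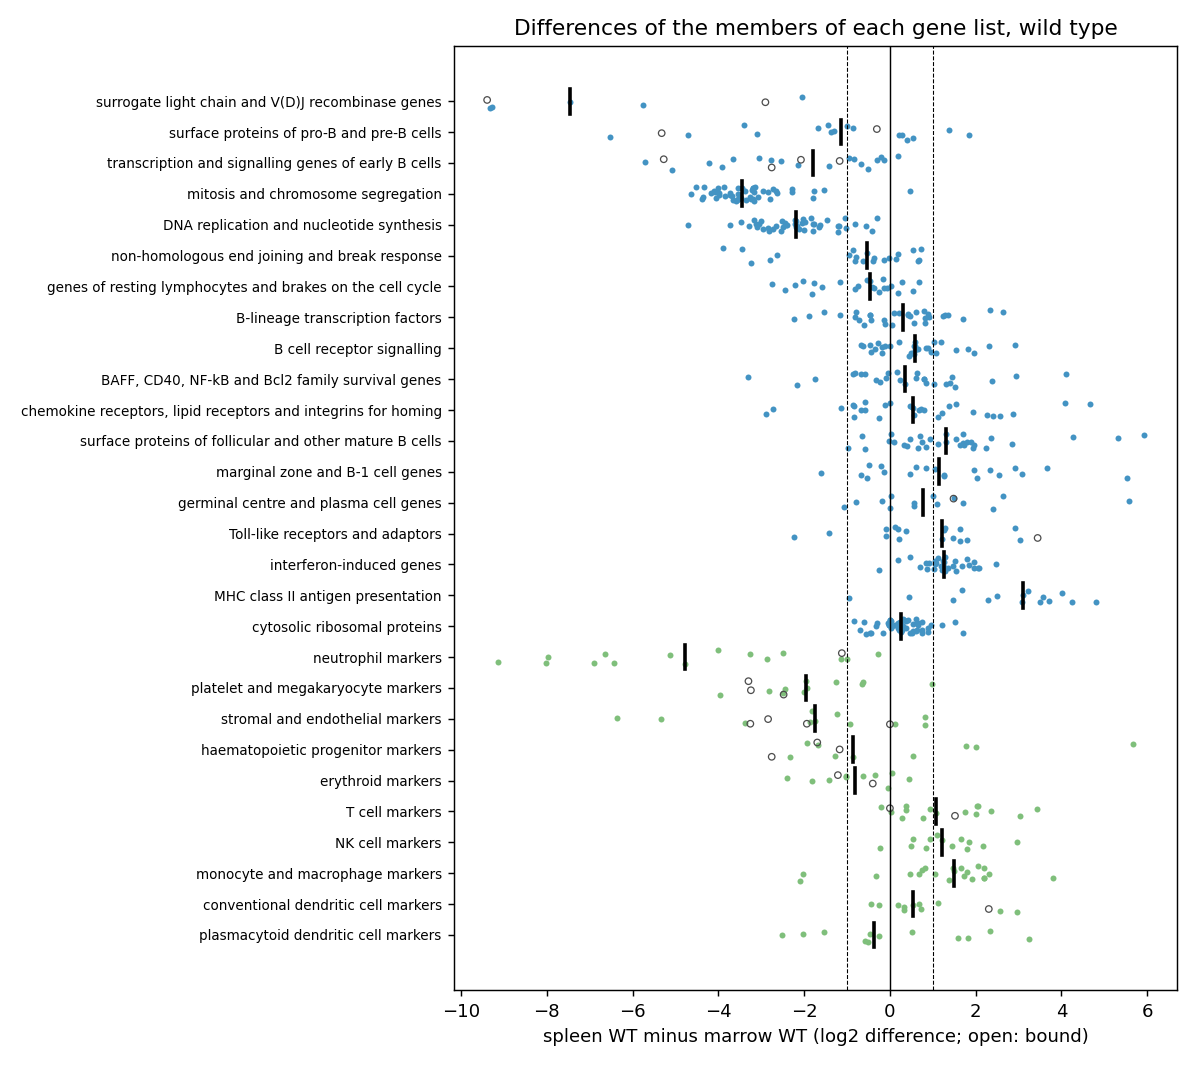
Log2 difference of spleen WT minus marrow WT (x axis) of every measured member of 28 gene lists (rows). Open circles are bounds, the black bar is the median of members measured on both arrays, the dashed lines mark 2-fold, and markers of other cell types are in green. Medians run from -7.47 for surrogate light chain and recombinase genes to 3.10 for MHC class II.

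Of 32 B-lineage transcription factors, which hold B-cell identity, 6 were at least 2-fold higher, 4 lower, and the median was 0.31, beside 31.1% of all genes called in either direction. In limma 0 of them were called. Among those higher were Runx3 (289 and 1811, 2.64, but 0.02 by its other probe), Nfatc1, a calcineurin-driven factor (2.33), Klf3 (1.71, or 3.04 by its other probe), and Bcl6, the germinal centre repressor (6407 and 15118, 1.23). Pax5, the commitment factor, had 454 and 298 (-0.61). Lower were Zeb2 (-2.24, but -0.54 by 1 of its probes) and Pou2af1 (OBF-1), the coactivator of Oct factors, at 174866 and 47991 (-1.88). In the KO-labelled pair Pou2af1 differed by 0.37.

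Surface proteins of mature B cells were higher in spleen WT for 18 of 32 and lower for 0, with a median of 1.31. Cr2, which encodes the complement receptors CD21 and CD35, had signals of 484 and 29457, a difference of 5.92 (60.4-fold) by the brightest probe and 2.70 by the other. Fcer2a (CD23), the low-affinity IgE receptor of follicular B cells, had 1734 and 69205 (5.31, 39.6-fold). Icosl, the ligand of the T cell receptor ICOS, had 1262 and 24635 (4.28). All 3 were dim in marrow beside their own signal in spleen.

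Fcmr, the receptor for IgM, was at 38709 and 199947 (2.36), and the inhibitory lectin Cd22 at 8137 and 32045 (1.97). The activation and costimulation proteins Cd83, Cd86 and Cd40 differed by 2.25, 1.32 and 1.13, less than the costimulatory ligand Icosl. In limma 9 of the 32 rose, Cr2 by 6.64 (SE 0.575, adjusted p 0.00116), Fcer2a by 4.84 (adjusted p 0.00222), Icosl by 4.49 (adjusted p 0.00263) and Cd22 by 2.06 (adjusted p 0.0496, lost with cyclic loess). Cd40 had an adjusted p of 0.118 in limma. Slamf6 (-0.97, but 0.17 by its other probe), Slamf7 (-0.64) and the Fc receptor-like gene Fcrla (-0.58) leaned to marrow by less than 2-fold. The probe of Cr2 lies on chromosome 1 at 196967371 to 196967430 and that of Fcer2a on chromosome 8 at 3682021 to 3682080 of mm9.

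MHC class II genes had the largest positive median of the lists. Of 15 measured, 13 were at least 2-fold higher in spleen WT and 0 lower, with a median of 3.10. Among the chains of the I-A and I-E molecules, H2-Aa had 5009 and 81139 (4.01), H2-Ab1 30989 and 264905 (3.09, and up to 5.05 by its other probes), and H2-Eb1 6224 and 70431 (3.49). H2-Ea, the I-E alpha chain, which C57BL/6 mice do not express, was not well above background on either WT array, at 3.83 and 4.77. Peptide loading genes were higher too, H2-DMa at 1839 and 24297 (3.71), H2-Ob at 2.50, and the invariant chain Cd74 at 58955 and 290138 (2.29). Ciita, the coactivator that switches this set on, had 949 and 26891, the largest difference of the list (4.81, 28.1-fold). The DNA-binding subunits with which Ciita works were not a block: Rfx5 had 1.67, Rfxank 0.45 and Rfxap -0.96.

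In limma 12 of the 15 rose, H2-Aa by 4.40 (SE 0.535, adjusted p 0.00296) and Ciita by 3.80 (adjusted p 0.00891). The call for the protease Ctss (adjusted p 0.0498) was lost with cyclic loess and with quantile normalization, and that for H2-Oa (0.02) with cyclic loess. The KO-labelled pair had 4.79 for H2-Aa and 2.79 for Ciita. Macrophages and dendritic cells also carry MHC class II, and 14 of 21 monocyte and macrophage markers were at least 2-fold higher in spleen WT, with a summed signal of 120004 in marrow and 115311 in spleen. Without Lyz2, the brightest, which neutrophils share, that sum was 33683 in marrow and 95000 in spleen, and in limma 10 of the 21 rose and 2 fell. Conventional dendritic cell markers were higher for 4 of 12 (28182 and 40513 summed). Their part in the MHC class II values was not tested.

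The promoters of H2-Aa and H2-Eb1 are shown because MHC class II genes carry a Y box next to their start, and that of Mki67 because the same box is common in genes of cell division. They are the 250 bases before the start on GRCm38.p6, chr17:34287824-34288073 on the minus strand, chr17:34305617-34305866 on the plus strand and chr7:135716380-135716629 on the minus strand, with the Y box CCAAT of either strand in capitals.
H2-Aa: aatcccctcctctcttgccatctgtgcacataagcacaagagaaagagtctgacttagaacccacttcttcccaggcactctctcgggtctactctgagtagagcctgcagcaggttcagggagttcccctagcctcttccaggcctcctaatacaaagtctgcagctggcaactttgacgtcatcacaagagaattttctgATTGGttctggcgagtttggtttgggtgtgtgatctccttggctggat
H2-Eb1: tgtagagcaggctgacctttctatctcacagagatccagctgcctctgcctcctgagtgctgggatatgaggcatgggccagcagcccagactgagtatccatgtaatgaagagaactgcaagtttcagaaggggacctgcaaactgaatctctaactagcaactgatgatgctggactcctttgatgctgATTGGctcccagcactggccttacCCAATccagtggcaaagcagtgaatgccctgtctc
Mki67: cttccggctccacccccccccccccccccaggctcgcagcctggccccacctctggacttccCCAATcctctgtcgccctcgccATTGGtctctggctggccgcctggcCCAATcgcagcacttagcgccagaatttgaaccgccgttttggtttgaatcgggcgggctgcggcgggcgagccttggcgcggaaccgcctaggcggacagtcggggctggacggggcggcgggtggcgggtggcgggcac
The Y box starts 48 bases before the start of H2-Aa, 59 and 35 before that of H2-Eb1, and 188, 166 and 141 before that of Mki67. Of 11 promoters available for the MHC class II list, 9 held the Y box (81.8%). These 11 include Ctss, Rfx5 and Rfxank, of which Rfx5 and Rfxank held it, but not H2-Ab1, Cd74 or Ciita. The Y box was also in 29 of 41 mitosis promoters (70.7%) and 24 of 38 replication promoters (63.2%). Of all promoters 34.5% held it, and 35.9% of those of genes measured on the WT arrays. Among 729 promoters of genes at least 4-fold lower in spleen WT the share was 45.7%, and among 399 of genes at least 4-fold higher it was 35.1%. The Ebf1 core stood at 17.8% and 15.0% in these sets and at 14.6% of measured genes, and the E-box at 15.6%, 18.5% and 16.0%. CAGGTG, CCCNNGGG and CCAAT do not contain each other. These shares describe letters in a fixed window, in genes whose choice rests on 2 arrays.

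Beside 15.3% of all genes higher and 15.8% lower, 8 of 30 genes of B cell receptor signalling were at least 2-fold higher and 0 lower. Their median was 0.57. Largest was Bank1, a scaffold that links Lyn to calcium signals, at 3548 and 26774 (2.91). Rasgrp3, which passes the signal to Ras, had 2082 and 8161 (1.96), and the adaptor Lat2 2662 and 9531 (1.83). These 3 rose in limma, Bank1 by 3.23 (adjusted p 0.00891), and the call for Lat2 was lost with cyclic loess. The kinase genes next to the receptor were close to level, with Lyn at -0.01, Blk at 0.49 and Btk at 0.56. The pre-B cell receptor adaptor Blnk had 163302 and 102906 (-0.68).

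Among 27 survival genes of the BAFF, CD40, NF-kB and Bcl2 families 8 were higher by 2-fold or more and 3 lower (median 0.36). The shares over all genes measured were 15.3% higher and 15.8% lower. Bcl2 and Bcl2l1, which both keep mitochondria intact, moved in opposite directions. Bcl2 had 1423 in marrow and 7443 in spleen (2.38) and rose by 2.60 in limma (adjusted p 0.0206). Bcl2l1 (Bcl-xL), which protects pre-B cells, had 2225 and 225 (-3.31, or -2.27 by 1 of its probes) and fell by 4.29 (SE 0.617, adjusted p 0.00529 in limma). Traf1, an NF-kB target that binds TNF receptors, had 325 and 5591 (4.10). Bcl2a1b, one of several near-identical copies of A1, differed by 2.93. Bmf, a death-promoting member, was at 12560 and 2825 (-2.16, but -0.29 by 1 of its probes, adjusted p 0.0914 in limma), while Mcl1 differed by 0.80 and by -0.26 with its other probe.

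Receptors that place B cells in follicles and let them recirculate were higher in spleen WT. Of 30 homing genes 11 were higher by 2-fold or more, 3 were lower, and the median was 0.55. Ccr6, a chemokine receptor of mature B cells, had signals of 602 and 15448 (4.67, 25.5-fold), and Gpr183 (EBI2), an oxysterol receptor that guides cells within the follicle, 1119 and 18989 (4.08). Cxcr5, the receptor for the follicle chemokine CXCL13, had 7667 and 36901 (2.26). S1pr1, needed to leave tissues, had 2328 and 13972 (2.58), and Itgb7, the beta 7 integrin, 2730 and 20167 (2.88). These 5 rose in limma, Ccr6 by 4.84 (adjusted p 0.002), Gpr183 (adjusted p 0.00359) and S1pr1 by 2.27 (adjusted p 0.0364, lost with cyclic loess). Ccr7, a receptor for lymph node chemokines, differed by 1.13. Cxcr4, the receptor that keeps early B cells beside CXCL12 in the marrow, was lower, at 17662 and 2697 (-2.72). It differed by -0.47 in the KO-labelled pair and did not pass in limma (adjusted p 0.208). Rgs2, a brake on G protein signals, had 95423 and 12891 (-2.90), and -0.75 in the KO-labelled pair.

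Of 20 marginal zone and B-1 cell genes 11 were higher by 2-fold or more and 1 lower (median 1.15). Dtx1 (Deltex), a target of the Notch2 receptor that directs marginal zone cells, had 2883 and 21783 (2.91), and Notch2 itself 2452 and 9591 (1.96, with its other probes at 0.79 and 3.10). Zbtb32 had 104 and 1311 (3.65), and S1pr3, a lipid receptor of marginal zone cells, 356 and 3020 (3.08, or 1.62 by its other probe). Fcrl5 differed by 5.53 by its brightest probe and 0.32 by the other. Dtx1 rose by 3.46 (adjusted p 0.00796) and Notch2 by 2.25 (adjusted p 0.0376, lost with cyclic loess) in limma, as did 4 others of the list. Cd1d1, high on marginal zone cells, did not follow, at 18247 and 11553 (-0.67).

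Germinal centre and plasma cell genes were higher for 7 of 15 and lower for 1 (median 0.78). Jchain, the joining chain of secreted IgM and IgA, had 927 and 44399 (5.57, 47.6-fold) and rose by 5.72 in limma (adjusted p 0.00118). Tnfrsf17 (BCMA), the survival receptor of plasma cells, was dim, at 35.1 and 220.5 (2.64). Xbp1 (0.55) and Prdm1 (0.56), the plasma cell regulators, differed by under 2-fold, and Sdc1 (CD138) was at 1204 and 575 (-1.08). Of the 3 immunoglobulin entries in the list of constant regions that matched a probe by name (the locus entry Igh is given below) 1 was at least 2-fold higher, the IgA constant region Igha, at 1750 and 4252 (1.27).

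Toll-like receptor genes and their adaptors were higher in spleen WT for 10 of 18 and lower for 2 (median 1.22). Tlr7, a sensor of single-stranded RNA, had 425 and 3502 (3.03), Tlr1 had 1951 and 14864 (2.92), and Tlr3, a sensor of double-stranded RNA, was at least 10.9-fold higher, from under the detection limit to 162. Tlr9, the DNA sensor, had 2492 and 2368 (-0.08), so these nucleic acid sensors did not differ alike. Tlr1 (adjusted p 0.00763), Tlr7 (0.00797), Tlr3 (0.00295) and the CD180 partner Ly86 (0.0323, lost with cyclic loess) rose in limma. Tlr5, the flagellin receptor, was lower (-2.24). Macrophages carry Toll-like receptors too, and the part of their markers, counted above, was not tested.

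Interferon-induced genes were higher in spleen WT for 24 of 31 and lower for 0, with a median of 1.26. The differences were of moderate size, largest for Ifit3 (470.5 and 2636, 2.48), and Zbp1, a nucleic acid sensor, had 936 and 3640 (1.95). In limma 2 of the 31 rose, Ifit3 (adjusted p 0.0136) and Zbp1 (0.0308, lost with cyclic loess).

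Genes of growth and upkeep differed less. For the counts here, 15.3% of all genes measured in the WT pair were higher by 2-fold or more and 15.8% lower. Of 55 cytosolic ribosomal protein genes 3 were higher by 2-fold or more and 0 lower. Their median of 0.26 became -0.07 with quantile normalization, and 0.70, with 15 members higher, under cyclic loess. The KO-labelled pair had 44 of them higher and a median of 1.23, where 15.6% of all genes were higher and 14% lower in that pair. Its spleen array was dimmer than the others, as given below. Glycolysis genes had 2 of 22 higher and 4 lower, with a median of -0.20 that became 0.09 with quantile normalization and 0.11 with cyclic loess. Among these the lactate carrier Slc16a1 had 26654 and 965 (-4.80, or -2.39 by 1 of its probes) and fell by 3.96 in limma (adjusted p 0.00606). Control genes had a median of -0.13, with Gapdh at -0.09 and Actb at 0.96, and 0.16 with cyclic loess. Immediate early genes, which also respond to tissue dissociation, had 3 of 26 higher and 7 lower, with Nr4a1, induced by the B cell receptor, at 2995 and 10131 (1.75) and the heat shock gene Hspa1a at 209 and 42.7 (-2.30).

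Markers of other cells differed with the organ, where 15.3% of all genes measured were at least 2-fold higher in spleen WT and 15.8% lower. Neutrophil markers were at least 2-fold lower in spleen WT for 15 of 16, with a median of -4.77. Camp, a granule peptide, had 28798 and 51.3 (-9.14), and S100a8 70690 and 2608 (-4.77). Lower too were 11 of 14 platelet and megakaryocyte markers (median -1.96, summed signal 10628 and 4485, with Pf4 at 2003 and 287) and 10 of 15 stromal and endothelial markers (median -1.74, summed 24378 and 21526, or 14235 and 3391 without Vcam1, which macrophages share, with Cxcl12 at 5002 and 124). Erythroid markers were lower for 6 of 12 (median -0.82, summed 20738 and 10845). In limma 13 neutrophil, 8 platelet and 10 stromal markers fell.

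Higher in spleen WT were 9 of 17 T cell markers (median 1.08, summed signal 5859 and 10813), 8 of 13 NK cell markers (1.21, summed 3501 and 7986) and the monocyte and macrophage markers counted above. Cd3e had 258 and 551 (1.08), the macrophage growth factor receptor Csf1r 461 and 6517 (3.81, with another probe at 1.15), and Spic, a factor of red pulp macrophages, 1325 and 6152 (2.21). Lyz2, the lysozyme shared by macrophages and neutrophils, was lower (-2.10, or -0.52 by its other probe). Of progenitor markers 7 of 12 were lower and 3 higher, and the largest was Ly6a (Sca-1), which some mature lymphocytes also carry, at 662 and 33881 (5.67). Plasmacytoid dendritic cell markers had 4 of 12 higher and 3 lower (summed 97301 and 135010). Ly6c2 alone had 6943 and 65906 of these sums. Higher too were Pacsin1, Lag3 and Klk1, lower were Runx2 (-2.51), Clec10a (-2.02) and Cox6a2 (-1.53), and Siglech differed by -0.57. Plasma cell markers had 4 of 10 higher and 1 lower (49745 and 88403, of which Jchain had 927 and 44399). Basophil, mast cell and eosinophil markers had 3 of 11 each way (1751 and 4193). The part of these cells in the B-lineage differences above was not tested.

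The largest differences of all included genes of the B lineage and of granulocytes. Lowest among genes measured on both arrays, beside those named, were Cstdc5 (-8.46), Csta1 (-7.52) and Stfa3 (-7.09), cysteine protease inhibitors of a family of near-identical copies, so which copy was measured is uncertain, and the granule genes Ltf (-8.02) and Ngp (-7.97). Ptgr1, a prostaglandin reductase, had 24031 and 214 (-6.82), and the neutrophil gene Lcn2 had 3485 and 35.4 (-6.63). Among bounds, Smtnl2 was at least 168-fold lower, Tmem132e at least 139-fold and the RNA-binding protein gene Rbm24 at least 104-fold. Highest was a probe of the immunoglobulin heavy chain locus (Igh) at 208 and 234997 (10.14), one of several probes for different segments that ranged from 1.05. Next came Apol7c (21.2 and 2182, 6.68) and Adamdec1, a secreted metalloprotease (16 and 1606, 6.64). Atcay differed by 4.68, but by -0.06 in the KO-labelled pair. Among bounds, Dhrs13os was at least 53.6-fold higher and Fam13c at least 42.3-fold, and neither was well above background on the KO-labelled arrays. Pdcd1lg2 (PD-L2), a ligand of PD-1 found on B-1 cells and dendritic cells, was at least 36.8-fold higher, from under the detection limit to 546. Tsga13 was at least 31.1-fold higher.

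The KO-labelled pair shares no array with the WT pair, but has its slides, and its values are given side by side. Its spleen array was dimmer, with a 75th percentile of 524 against 1012 on KO-labelled marrow. Well above background there were 59.3% of gene spots, against 70.4% on KO-labelled marrow. What this does to the differences of the KO-labelled pair was not tested. Of 19371 genes measured in both pairs, 2631 reached 2-fold toward spleen in WT and 3016 in KO, and 1170 were in both lists, 44.5% of the first and 38.8% of the second. For lower genes the shared count was 1535, which is 47.4% of 3241 in WT and 56.4% of 2720 in KO. Opposite directions were found for 87 of the WT higher genes (3.31%) and 78 of the WT lower genes (2.41%). Over the 16248 genes detected on each of the 4 arrays, both pairs' differences correlated with Pearson's r of 0.62 and Spearman's rho of 0.46, where genes are not independent and the arrays share slides. Whether a difference itself differed between genotypes could not be fitted with 4 arrays and was not tested. Among genes far apart in value, Rgs1 had 0.72 in WT and 7.28 in KO, and Ciita 4.81 and 2.79.

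**Figure D4:**
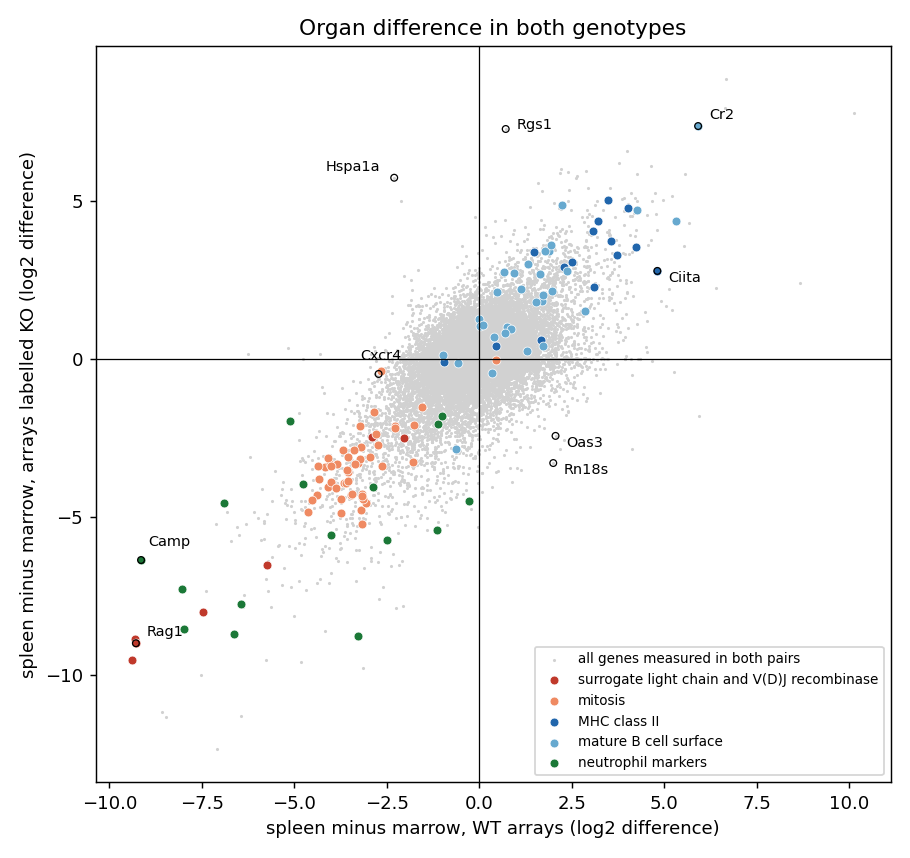
Log2 difference of spleen minus marrow on the WT arrays (x axis) and on the arrays labelled KO (y axis) for genes measured in both pairs, bounds included, with 5 gene lists in colour. Surrogate light chain, recombinase and neutrophil genes lie at the lower left and MHC class II genes at the upper right, while Hspa1a, Oas3 and Rn18s lie above 0 on 1 axis and below it on the other.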

How the data were processed

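Labelled RNA of B220 cells was measured on 4 Agilent 1-colour arrays, 1 per organ and genotype, grouped by the sample titles. Per the file headers, Feature Extraction 10.5.1.1 made the deposited values, which are intensity (processed signal, background-subtracted by the authors' scanner software). Control spots and outlier spots (72 on marrow WT and 85 on spleen WT) were left out, and spots of a probe were averaged. From each array's log2 signals its own 75th percentile of gene spots was subtracted. Each gene takes its brightest probe. Probes were named through RefSeq: 25097 of 41174 matched by accession, 6306 by current symbol and 1630 by an older symbol, and 8104 kept the file's name. Well above background were 72.0% of gene spots on marrow WT and 69.1% on spleen WT, and no spot was saturated. A bound sets the brighter value against the lowest signal well above background or the dim probe's own, whichever is higher. The deposited value table equals the processed signal on the linear scale at all 45018 spots, with column medians of 82.7 and 93.0, so it gave no further alternative.

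Genes were called higher or lower at 2-fold. The fit over both genotypes used limma 3.58.1 in R 4.3.3 and Python 3.11.15 did the rest. The contrast was tested on simulated data. Alternatives were median, quantile and cyclic loess scaling, normexp background correction, other fold thresholds, filters and the median over probes. Genes named were drawn from anchor genes of B cell maturation and up to 4 members of each list at each end. To these came the 12 largest differences each way whose probes all differ at least 2-fold, and the 6 largest bounds each way. The 6 limma genes with the smallest adjusted p each way were added. Not every gene of these groups is named. Further list members, such as Notch2 and Rgs1, were named for their role after their values were seen. Members and lists were chosen with earlier results of these data known. Promoters are RefSeq's on GRCm38.p6, and probe positions are the array's own on mm9.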

Additional observations from a re-analysis of the deposited data

Results flagged for a closer look

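Several genes differed at least 2-fold between organs in WT and at least 2-fold the other way in the KO-labelled pair. Whether the pairs differ was not tested, since each has 1 array per organ. Heat shock protein genes were among them: Hspa1a had a difference of -2.30 in WT and 5.74 in KO, and its near-identical copy Hspa1b a bound of -2.12 in WT and 5.01 in KO. S1pr2, a receptor that holds germinal centre B cells in place, had 2.40 in WT by the brightest of its 3 probes (0.27 by the lowest) and was at least 3.18-fold lower in KO-labelled spleen. The interferon-induced Oas3 had 2.06 and -2.43, the glycolysis gene Eno1 1.35 and -1.39, the T cell marker Cd3d 2.37 and -1.49, and the eosinophil granule gene Prg2 1.32 and -1.33. Probes named for ribosomal RNA stood apart too: Rn18s had 2.0 in WT by its brightest probe (7.82 by the other) and -3.29 in KO, and Rn28s1 5.93 in WT and a bound of -1.81 in KO.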

How the results depend on the processing

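The WT differences have no replicate, so no array could be left out. No paired analysis was possible because each group holds 1 array. Differences were followed for the anchor genes, the members at the ends of each list, and the largest differences and bounds. Of these, 2053 values under an alternative lay within the spread between probes of a gene (SD 0.81) and 105 moved further. The sign changed for 31 of these 2158 values, in genes whose difference was at most 0.86 in size, and for 0 of the followed genes at least 2-fold apart. Other list members, such as Btg2 and Bub1 with probes that went opposite ways, were not followed. With normexp 2016 genes were higher and 2196 lower, at 1.5-fold 5141 and 5931, and at 4-fold 1022 and 998. At 4-fold the list counts were 5 for early surface proteins, 2 for B-lineage factors, 6 for mature surface proteins, 7 for marginal zone genes, 3 for germinal centre genes, 0 for immunoglobulin entries, 2 for receptor signalling, 3 for survival, 6 for homing, 3 for Toll-like receptors, 4 for cell cycle brakes, 1 for glycolysis, 0 for ribosomal proteins and 3 for interferon. The median over probes gave 11 B-lineage factors, cyclic loess 2 immunoglobulin entries and 15 ribosomal proteins, and normexp 2 glycolysis genes. Genes that rose in limma numbered 911 with median scaling, 285 with cyclic loess, 1101 with normexp, 1147 without the filter and 972 when above background on all 4 arrays. The Y box was in 39.7% of promoters of genes lower at 2-fold. For the named and listed genes in limma, each under each alternative, 4520 values kept their status, called or not called. Genes never called are part of that count. A call was gained in 336 values and lost in 80. The cause of these changes was not tested.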

Other observations

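Genes of the exocrine pancreas were higher in spleen. After Pnlip and Amy2a5 were found among the largest bounds, a list of 27 such genes on the array was drawn up. Of 26 measured on the WT arrays 17 were at least 2-fold higher in spleen and 0 lower, beside 15.3% and 15.8% of all genes measured. The 17 include Pnlip and Amy2a5, which prompted the list, and 4 of them are bounds, above background in spleen only. The median difference was 2.68 over the 20 measured on both arrays. The KO-labelled pair had 17 of 22 higher and 0 lower, with a median of 2.14, beside 15.6% of all genes higher and 14% lower in that pair. Pnlip, pancreatic lipase, had signals of 6.17 on marrow WT and 416 on spleen WT, the elastase gene Cela2a 4.29 and 227, the amylase gene Amy1 271 and 4916, and the protease gene Ctrc 37.6 and 896. Ptf1a, the regulator of the acinar cell, was not higher, at 23.8 and 17.3.

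Xist and Y-linked transcripts were both present on the WT arrays. Xist, made by the inactive X, had signals of 9883 on marrow WT and 24195 on spleen WT, and its antisense partner Tsix 31.6 and 1168. The Y-linked Ddx3y had 2005 and 1193 and Eif2s3y 5183 and 1155, all well above background. On the arrays labelled KO, Ddx3y had 699 in marrow and 3.97 in spleen, and Eif2s3y 2982 and 4.06. Neither was well above background in KO-labelled spleen, while Xist had 14461 in marrow and 17206 in spleen there. The KO-labelled marrow and spleen arrays thus differ in Y-linked signal. The WT arrays differ as well, by -2.18 for Eif2s3y, -1.35 for Uty, -0.76 for Ddx3y, -0.35 for Kdm5d and 1.28 for Xist. What these sex-linked differences do to the WT and KO-labelled differences of other genes and to the limma fit was not tested. The files used here do not give the sex or the number of the animals.

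Probe position along the transcript could be compared for 4263 pairs of probes of 1 gene. Of these, 24.4% were over 2-fold apart in their WT difference, and the probe nearer the 3′ end had a median of -0.16 relative to the other.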
